A study of Mus musculus with 17 samples.

Results

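Mouse embryonic fibroblasts that carried oncogenic Ras and had lost 1 of their 2 Usp28 alleles are described here against Ras fibroblasts with both alleles. The comparison was chosen by its labels: it takes the +/- and the +/+ group of the Ras set, with 2 libraries each, which are 4 of the 17 RNA libraries of the series. The fibroblasts came from E13.5 embryos of the C57bl/6 strain. Both groups shared every labelled step except genotype. The cells were immortalized with pRetroSuper-shp19ARF, a retrovirus whose short hairpin RNA targets p19ARF. They were then transformed with pBabe-HRasG12V, which delivers an HRas locked in its active form, and given the pWZL-GFP vector. The Ras set was sequenced in duplicates, and the labels name no embryo or clone for a library. The p-values therefore rest on a spread between libraries that may be technical, and the main test takes 1 dispersion for all genes and not the spread of each gene. The lost allele and any other difference between the 2 cell populations cannot be told apart.

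Usp28 is a deubiquitinase, an enzyme that takes ubiquitin off other proteins. It binds Fbw7, the substrate-binding part of an SCF ubiquitin ligase that sends Myc, Jun, cyclin E and Notch to the proteasome, and it can spare these substrates and Fbw7 itself from breakdown. Ras drives the MAP kinase cascade, whose output includes immediate-early transcription factors, feedback phosphatases and secreted proteases. All values here are of RNA, so levels of the substrate proteins were not measured, and a smaller number of cells of a type cannot be told apart from less RNA per cell.

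Levels are in RPM, the reads of a gene per 1000000 reads of its library, and are not corrected for gene length, so they compare libraries and not genes. Of 33440 genes in the Ras table, 15950 had a mean level of at least 1 RPM and were tested. A gene at or near 0 in 1 group passed this filter only through the other group. Counts and medians of the lists below hold such members. The effective depth was 4.67 M (M, 1000000) and 6.70 M reads in the +/+ libraries and 6.30 M and 6.92 M reads in the +/- libraries. On this scale 1 read was 0.0880 RPM of the +/+ group and 0.0756 RPM of the +/- group. The libraries of a group are called shallower and deeper, and pairs of values below are always given in that order. The shallower +/+ library stood apart at 67 of 11056 genes with 10 RPM or more, where it was at least 4-fold above the deeper one, against 0 genes the other way. These 67 loci, among them Cmss1 and Filip1l, which overlap, and the mitochondrial rRNA gene mt-Rnr2, summed to 114509 RPM in that library and 7422 RPM in the deeper one. The +/- libraries were at least 4-fold apart at 36 genes of that level, 34 of them among these 67 loci. Over the loci with values, the median ratio of the shallower to the deeper library was 16.2 in +/+ and 6.28 in +/-. Of the 67 genes, 60 were called lower and 6 higher, and 49 of the 54 with values for every library overlapped between the groups. The 6 called higher were Myrf, Smpd3, Slc7a2, Epha4, Scube3 and Pou6f1. They were at 2.14 RPM or less in either +/+ library and reached 10 RPM only through the +/- group. Their ratio between the +/+ libraries thus rests on few reads. Without the 67 genes 5378 genes were called, 2781 higher and 2597 lower.

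Loss of 1 Usp28 allele went with a wide difference in the Ras transcriptome. The test took the authors' edgeR p with Benjamini-Hochberg adjustment, and an adjusted p under 0.05 is called here. It called 5444 genes (34.1%), of which 2787 were higher in +/- cells (17.5% of those tested) and 2657 lower (16.7%). The median absolute log2 fold of called genes with reads in both groups was 1.08, while the median log2 fold of all tested genes was 0.0099. Of the called genes, 1412 differed by at least 4-fold, and among these 366 were at least 16-fold higher and 174 at least 16-fold lower. No read was seen in the +/+ group for 107 called genes, and none in the +/- group for 57. Values for all 4 libraries could be had for 5340 called genes: in 5236 the groups did not overlap and in 104 they did. Over the 15690 tested genes with such values, both +/- libraries lay above both +/+ libraries in 37.7% and below them in 35.8%. Non-overlap alone was thus common, and where it is stated below for a called gene it adds little to the call. Each standard error (SE) after ± is implied by the dispersion that the authors' test used for all genes (a coefficient of variation of 14.1% between libraries) and by the reads, and is not a spread measured for that gene. Where a group had 1 to 3 reads a 95% counting interval is given, and where it had 0 reads the fold is a lower bound against 3 reads in that group.

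**Figure D1:**
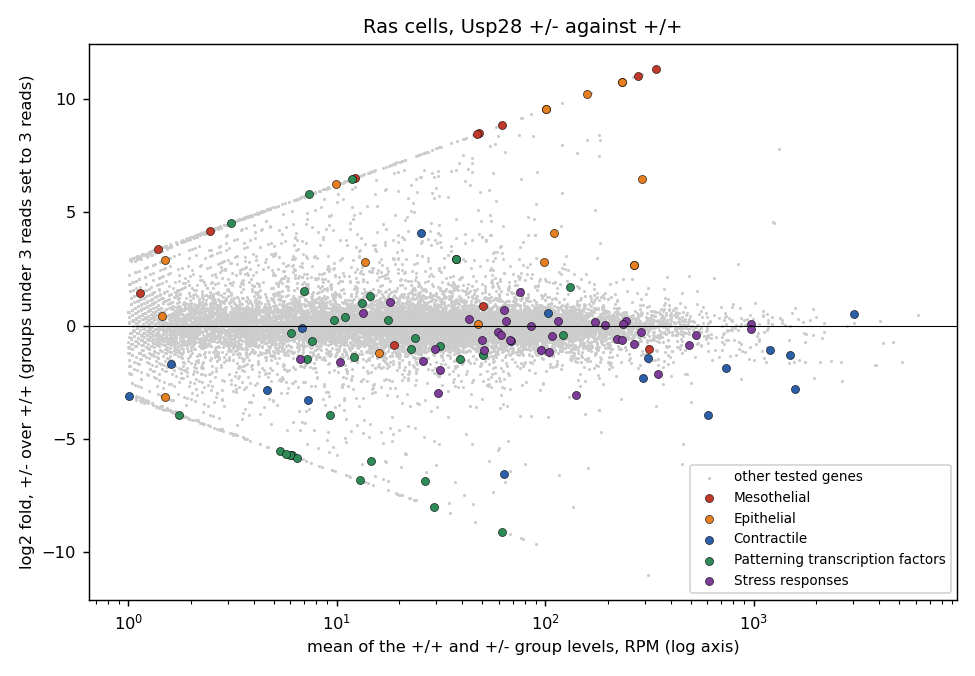
Each point is a tested gene, placed by its mean level in RPM (log axis) and its log2 fold, +/- over +/+, with groups under 3 reads set to 3 reads; members of 5 gene lists are coloured. Mesothelial and epithelial genes reach the top of the plot, with Upk1b, Upk3b and Krt8 above 10 on the log2 scale, while contractile genes and patterning factors lie mostly below 0.

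Usp28 itself (chromosome 9, 48985375 to 49042517, plus strand, GRCm38 annotation) was at 25.7 and 27.2 RPM in the +/+ libraries and 21.7 and 15.6 RPM in the +/- libraries (log2 fold -0.51 ± 0.24, adjusted p = 0.0905). Both +/- libraries were below both +/+ libraries, yet the difference did not pass the test. It passed without the shallower +/- library (log2 fold -0.76, adjusted p = 0.0426) and with limma on the recovered reads (-0.53, adjusted p = 0.0152). The RNA was thus nearer to the +/+ level than to 0 and does not check the genotype labels. Its level was 14.8 RPM in Ras -/- cells and 26.4 RPM in +/+ cells with the USP28 vector.

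The subunits of the Fbw7 ligase did not pass the test: 0 of 9 genes were called, against 34.1% of all tested genes, and limma, which called 48.2% of all genes, had 2 of the 9 higher and 4 lower. Fbxw7, which encodes Fbw7, was at 28.1 and 26.3 RPM in +/+ and 20.2 and 21.1 RPM in +/- libraries (log2 fold -0.40 ± 0.24, adjusted p = 0.199). Of 29 genes for Fbw7 substrates, 8 rose and 6 fell, with a median log2 fold of -0.22. Myc, the growth-promoting transcription factor, rose from 158 and 164 to 242 and 248 RPM (log2 fold 0.61 ± 0.21, adjusted p = 0.014). Jun, a subunit of the AP-1 factor, fell from 262 and 250.2 to 66.5 and 70.3 RPM (log2 fold -1.90 ± 0.21, adjusted p = 4.05e-17). The groups did not overlap for either gene, but the call on Myc was lost when any 1 of the 4 libraries was left out and with the dispersion doubled. Notch1, a receptor that becomes a transcription factor once cleaved, fell from 30.005 and 32.5 to 9.21 and 8.23 RPM (log2 fold -1.85 ± 0.26, adjusted p = 1.12e-11). Klf5, a factor of proliferating epithelia, fell from 51.2 and 47.9 to 12.7 and 9.82 RPM (log2 fold -2.14 ± 0.24, adjusted p = 7.38e-17). Ccne1, for cyclin E1, was at 49.1 and 43.0 RPM in +/+ and 35.4 and 35.8 RPM in +/- libraries (log2 fold -0.37 ± 0.22, adjusted p = 0.206). With limma Fbxw7 and Ccne1 were called lower (adjusted p = 0.0456 and 0.0168). The substrate genes thus lay on both sides, with Srebf1 (log2 fold 1.14), Nfkb2 (0.91) and Notch2 (0.85) among those that rose and Gata3 (-1.05) among those that fell.

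Genes of mesothelium were among those that rose most. Mesothelium is the sheet of cells that lines the body cavities and keeps both keratins and mesenchymal genes. Of the 12 genes with the largest rises 4 stand in the mesothelial list: Upk1b, Upk3b and the keratins Krt8 and Krt18, which stand in the epithelial list below as well. Of 20 mesothelial genes listed 16 were tested. Of these, 13 rose and 2 fell, with a median log2 fold of 5.36, against 17.5% higher and 16.7% lower of all tested genes. Their summed level was 566 RPM in +/+ and 3064 RPM in +/- cells. Upk1b, Upk3b, Wt1, Bnc1, Krt8 and Krt18 passed the level filter only through the +/- group, which adds rises to the count and raises the median. Upk1b, a uroplakin made by mesothelial and bladder epithelium, was at 0 and 0.149 RPM in +/+ and 534 and 579 RPM in +/- libraries (log2 fold 12.63, 95% counting interval 10.15 to 17.93, adjusted p = 4.79e-158). Its partner Upk3b was at 0.214 and 0.298 RPM in the +/+ libraries and at 677 RPM in the +/- group as a whole (log2 fold 11.33, 95% counting interval 9.78 to 13.60, adjusted p = 1.45e-163). The +/+ libraries held at most a few reads of either gene, so the size of these folds rests on very few +/+ reads. Wt1, the transcription factor that marks the mesothelium of the embryo, was at 0.214 and 0 RPM in +/+ and 123 and 126 RPM in +/- libraries (log2 fold 10.46, 95% counting interval 7.99 to 15.77, adjusted p = 8.34e-96). Bnc1, a zinc finger factor of mesothelial and squamous cells, was at 0.214 and 0 RPM in +/+ and 96.5 and 96.1 RPM in +/- libraries (log2 fold 10.09, 95% counting interval 7.62 to 15.40, adjusted p = 4.88e-86). Gata6, a factor of the mesoderm that lines the cavities, rose less steeply, from 6.86 and 10.00 to 67.6 and 64.3 RPM (log2 fold 2.94 ± 0.26, adjusted p = 2.82e-29). The list did not move as a block: Msln, for the surface protein mesothelin, fell from 427 and 423 to 196 and 222 RPM (log2 fold -1.02 ± 0.21, adjusted p = 7.33e-06), Bnc2 fell (log2 fold -0.86), and Gata5 and Tcf21 had no read in either group.

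Epithelial genes rose with them. Of 29 genes listed 14 were tested. Of these, 10 rose and 2 fell (median log2 fold 2.86), against 17.5% and 16.7% of all tested genes. The summed level was 191 RPM in +/+ and 2506 RPM in +/- cells. Here Krt8, Krt18 and Krt14 passed the level filter only through the +/- group, which adds rises to the count. Krt8, Krt18 and Krt19 stand in both lists. Krt18, a keratin of simple epithelia that pairs with Krt8, was at 0 and 0 RPM in +/+ and 209 and 194 RPM in +/- libraries (at least 764-fold higher, adjusted p = 1.64e-117). Krt14, a keratin of basal cells, was at 0.214 and 0.149 RPM in +/+ and 305 and 327 RPM in +/- libraries (log2 fold 10.81, 95% counting interval 8.96 to 13.86, adjusted p = 3.56e-133). Cdh3, for P-cadherin, was read in every library and rose from 5.36 and 7.16 to 581 and 567 RPM (log2 fold 6.50 ± 0.27, adjusted p = 2.42e-115). Krt19 (log2 fold 2.69) and Krt7 (4.09) rose as well, while the desmosome genes Pkp2 (-1.20) and Pkp3 (-3.15) fell. The defining genes Epcam, Krt5, Dsp and Cldn3, Cldn4, Cldn6 and Cldn7 were at or near 0 in both groups, so the rise covered keratins and P-cadherin and not a full epithelial set. Outside these lists the largest rises included Ptgis, the enzyme that makes prostacyclin (0.429 and 0 RPM in +/+ and 529.8 and 525 RPM in +/- libraries; log2 fold 11.54, 95% counting interval 9.70 to 14.60, adjusted p = 2.1e-153). Further ones were Myrf, for a membrane-bound transcription factor (0.643 and 0 RPM in +/+ libraries and 583 RPM in the +/- group), Vnn1, for the pantetheinase vanin-1 (0 and 0.149 to 336 and 328 RPM), and Ptprb, a receptor phosphatase (0.429 and 0 to 260.3 and 220.4 RPM).

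**Figure D2:**
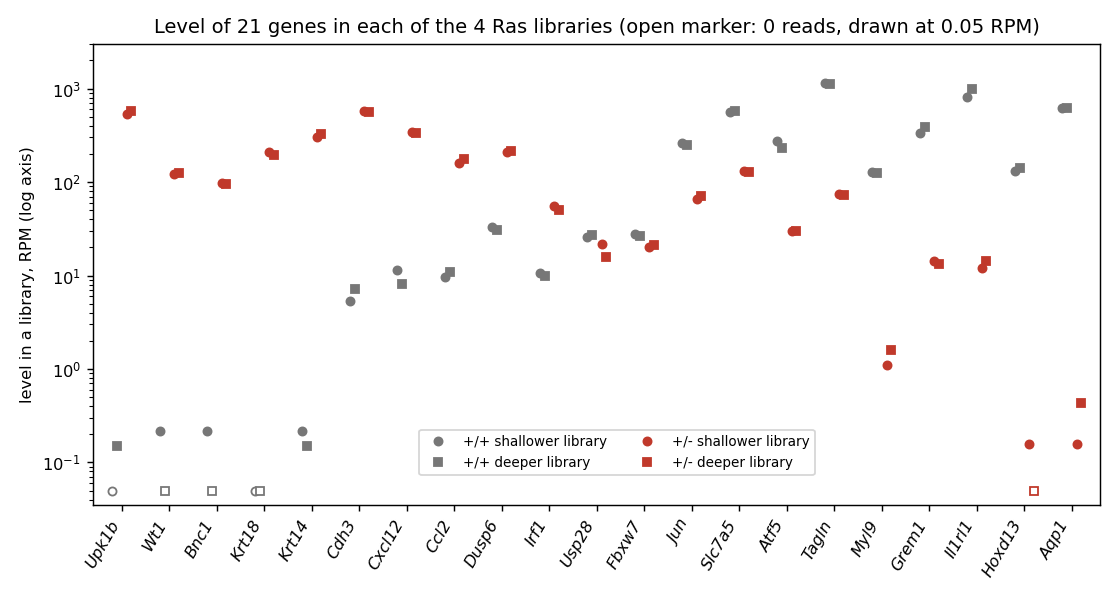
Level in RPM (log axis) of single genes in each of the 4 Ras libraries, +/+ in grey and +/- in red, with circles for the shallower and squares for the deeper library of a group and open markers for 0 reads. The groups lie apart for Upk1b (0.149 RPM at most in +/+ and 534 RPM at least in +/-) and, the other way, for Aqp1, whereas the Usp28 and Fbxw7 values of both groups lie close to each other.

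Hox genes set the position of cells along the body and limb axes. In the HoxA and HoxD clusters, but not in all 4, they shifted by position in the cluster. Of 24 tested, 8 rose and 9 fell (median log2 fold -0.21), against 17.5% and 16.7% of all tested genes. The genes that fell were those of paralog groups 7 to 13 in the HoxA cluster and 10 to 13 in the HoxD cluster, and the 8 that rose were anterior genes of the 4 clusters together with Hoxc6 and Hoxc13. Hoxd13, active in the outermost limb, was at 129.7 and 142 RPM in +/+ and 0.159 and 0 RPM in +/- libraries (log2 fold -10.81, 95% counting interval -16.12 to -8.33, adjusted p = 9.22e-105). Hoxd11 was at 48.0 and 41.3 RPM in +/+ and 0 and 0 RPM in +/- libraries (at least 196-fold lower, adjusted p = 2.01e-65). Hoxa11 was at 56.6 and 57.1 RPM in +/+ and 0 and 0.144 RPM in +/- libraries (log2 fold -9.56, 95% counting interval -14.86 to -7.07, adjusted p = 7.06e-74). None of the 3 had more than 1 read in the +/- group. In the other direction, Hoxc13 was at 0 and 0 RPM in +/+ and 26.0 and 30.5 RPM in +/- libraries (at least 107-fold higher, adjusted p = 3.56e-48). Hoxb4 was at 0.429 and 0.149 RPM in +/+ and 11.7 and 14.3 RPM in +/- libraries (log2 fold 5.62, 95% counting interval 4.05 to 7.91, adjusted p = 4.63e-25). Hoxd3 rose from 2.36 and 1.34 to 19.999 and 21.4 RPM (log2 fold 3.54 ± 0.39, adjusted p = 3.39e-23). The call on Hoxc4, one of the 8, was lost when either +/+ library was left out. HoxD thus held both directions, with Hoxd8 (log2 fold -0.21) and Hoxd9 (0.34) between them and not called.

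**Figure D3:**
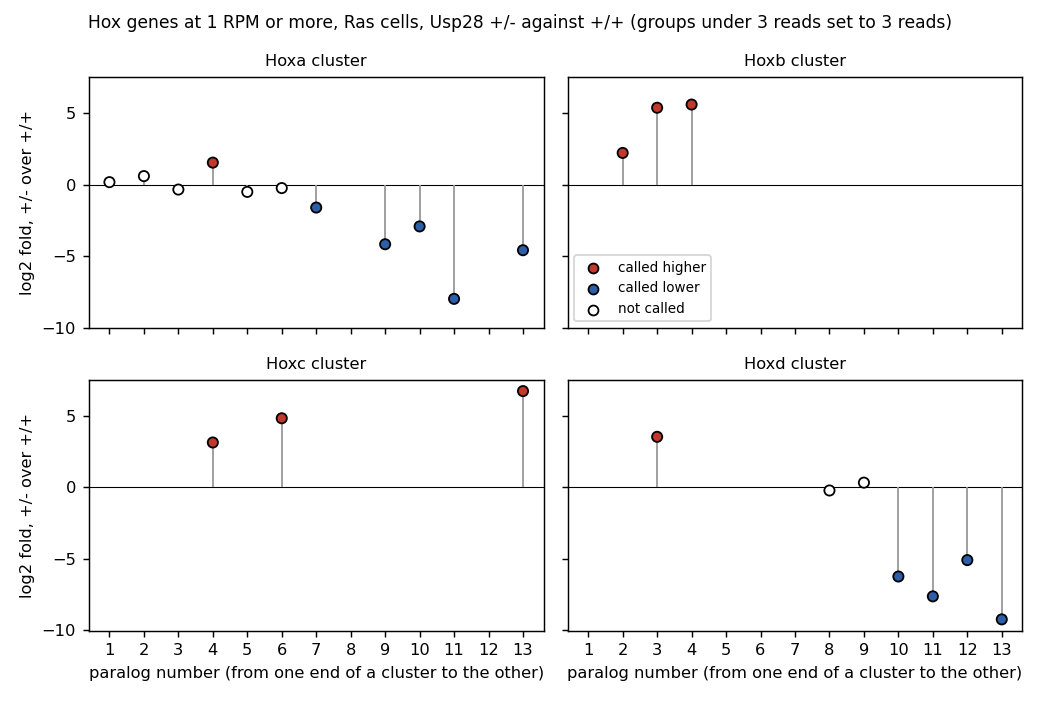
Log2 fold, +/- over +/+, of the tested Hox genes by paralog number in each of the 4 clusters, with groups under 3 reads set to 3 reads. HoxA and HoxD fall off toward high numbers, down to Hoxd13 and Hoxa11, while Hoxb4, Hoxc4 and Hoxc13 lie above 0.

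Other factors that pattern limb, face and body wall mostly fell: 18 of 33 fell and 8 rose (median log2 fold -1.05), against 16.7% and 17.5% of all tested genes. Six2, a factor of nephron and face progenitors, was at 58.5 and 58.6 RPM in +/+ and 0 and 0 RPM in +/- libraries (at least 258-fold lower, adjusted p = 6.23e-75). Tfap2b, a factor of neural crest and face, was at 117 and 132 RPM in +/+ and 0.159 and 0.144 RPM in +/- libraries (log2 fold -9.69, 95% counting interval -12.73 to -7.83, adjusted p = 2.57e-101). Its relative Tfap2a was at 26.1 and 25.8 RPM in +/+ and 0 and 0 RPM in +/- libraries (at least 114-fold lower, adjusted p = 2.15e-48). All 3 were near or at 0 in the +/- libraries. Foxc2, a factor of somite and vessel development, fell from 54.4 and 50.9 to 0.794 and 0.144 RPM (log2 fold -6.85 ± 0.60, adjusted p = 4.79e-65). Among those that rose, Dlx3, a factor of skin and jaw, went from 0.214 and 0 to 23.02 and 24.3 RPM (log2 fold 8.07, 95% counting interval 5.58 to 13.38, adjusted p = 1.6e-40). Irx2 rose from 0 and 0 to 14.6 and 14.7 RPM (at least 55.6-fold higher, adjusted p = 9.11e-31). The groups overlapped for none of the 6 named, as was so for most called genes. The largest falls of all included genes of secreted and membrane proteins. Aqp1, a water channel, went from 624 and 622 to 0.159 and 0.433 RPM (log2 fold -11.01 ± 0.71, adjusted p = 4.29e-165). Penk, the precursor of enkephalins, fell from 189 and 172 to 0.159 and 0.144 RPM. Gpnmb, a membrane glycoprotein of pigment cells and macrophages, fell from 146 and 159 to 0 and 0.144 RPM (log2 fold -10.98, 95% counting interval -16.28 to -8.50, adjusted p = 2.44e-111).

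Contractile genes fell together. Of 16 tested, 12 fell and 3 rose (median log2 fold -1.78), and their summed level was 12499 RPM in +/+ and 6419 RPM in +/- cells. Tagln, the actin-binding protein transgelin, fell from 1141 and 1117 to 75.1 and 72.8 RPM (log2 fold -3.93 ± 0.21, adjusted p = 7.03e-62). Myl9, the regulatory light chain of smooth muscle myosin, fell from 129 and 124 to 1.11 and 1.59 RPM (log2 fold -6.54 ± 0.39, adjusted p = 2.89e-87). Acta2, smooth muscle actin, fell from 2695 and 2842 RPM in the +/+ libraries to 399 RPM in the +/- group (log2 fold -2.79 ± 0.20, adjusted p = 1.34e-35). Each library of the +/- group was below each of the +/+ group for Tagln and Myl9, as in 35.8% of all genes. Mylk, the kinase that acts on that light chain, went the other way, from 3.21 and 2.54 to 51.4 and 44.8 RPM (log2 fold 4.09 ± 0.33, adjusted p = 8.24e-40). Vim (0.50) and Smtn (0.58) rose, and both of these calls were lost with the dispersion doubled (for Smtn also without the deeper +/+ or either +/- library). Srf, the serum response factor that binds CArG boxes of contractile genes, fell (log2 fold -1.62, adjusted p = 9.56e-13).

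The 250 bases before the gene start, from RefSeq promoters, were searched on both strands for the letters of a CArG box in its classical form. It stood in 2 of the 10 contractile genes that fell and have a promoter in the table (20%, Cnn2 and Myl9) and in 0 of 3 that rose. Of the 10123 tested genes with a promoter 1.5% held it in any of their promoters, and of all 32851 single promoters 1.47%. The match is shown for Myl9, whose fall was the largest of the list, at chr2:156775228-156775327 on the plus strand (RefSeq, GRCm38.p6), with the box in capitals.
Myl9: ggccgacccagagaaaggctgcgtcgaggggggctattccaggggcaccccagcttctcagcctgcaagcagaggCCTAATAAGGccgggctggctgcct

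Genes of the transition between epithelial and mesenchymal states showed 9 falls and 3 rises among 15 tested (median log2 fold -0.61). Zeb1, a repressor of E-cadherin, fell from 77.8 and 88.2 to 32.1 and 27.4 RPM (log2 fold -1.48 ± 0.22, adjusted p = 5.4e-10). Snai2, a repressor of the same kind, fell from 22.5 and 30.4 to 8.57 and 7.94 RPM (log2 fold -1.69 ± 0.26, adjusted p = 1.09e-09). Twist1 (log2 fold -0.94) and Prrx2 (-1.21) fell and Cdh13, an anchored cadherin, fell from 175 and 142 to 1.75 and 2.74 RPM, while Snai1 (0.65) and S100a4 (0.83) rose. The call on Snai1 was lost without the deeper +/+ library, without the deeper +/- library and with the dispersion doubled, and that on Twist1 without the shallower +/- library. Fn1 (0.48) and Prrx1 (0.45) were not called, though limma called Prrx1.

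Genes of the extracellular matrix changed in both directions. Collagens had 9 rises and 7 falls among 22 tested (median log2 fold 0.44), and proteoglycans 7 and 7 among 19 (median 0.30). Elastic fibre genes had 8 rises and 10 falls among 20 (median -0.085), and matricellular genes, whose secreted proteins signal from the matrix, 6 and 9 among 19 (median -0.27). Col6a1 and Col6a2, chains of collagen VI, rose by log2 folds of 2.14 and 2.08, while Col6a3, the third chain, fell from 43.7 and 40.3 to 0.635 and 1.01 RPM (log2 fold -5.66 ± 0.48, adjusted p = 3.27e-53). Col27a1, a fibrillar collagen of cartilage, went from 0 and 0.298 to 156 and 152 RPM (log2 fold 9.78, 95% counting interval 7.92 to 12.82, adjusted p = 1.93e-105). Col5a2 fell (-1.42). The chains of 1 collagen thus changed in opposite directions. Dcn, the collagen-binding proteoglycan decorin, was at 0.643 and 0.149 RPM in +/+ and 114 and 123 RPM in +/- libraries (log2 fold 8.39 ± 0.71, adjusted p = 1.46e-91). Loxl2, a collagen cross-linking oxidase, rose from 3.43 and 4.48 to 258 and 215 RPM (log2 fold 5.88 ± 0.30, adjusted p = 2.96e-90). Mfap5, a microfibril protein, fell from 30.6 and 35.2 to 0.476 and 0.144 RPM (log2 fold -6.77 ± 0.71, adjusted p = 5.29e-51). Fbln5, needed for elastic fibres, fell from 309 and 339 to 53.6 and 54.3 RPM (log2 fold -2.59 ± 0.21, adjusted p = 1.51e-29). The groups did not overlap in any of these 4 genes, as was so for most called genes. Other members of both lists went the opposite way, with Ogn, a small proteoglycan, lower (-2.29) and Fbln2 (2.11) and Efemp1 (2.36), of the fibulin family, higher. Thbs1, thrombospondin 1 and the most abundant called gene, fell from 7746 to 2539.9 RPM as group levels (log2 fold -1.61 ± 0.20, adjusted p = 2.41e-13). Thbs2 fell from 18.9 and 24.8 to 0.317 and 0 RPM. Ccn5 (Wisp2), a growth-restraining matricellular protein, fell from 314 and 318 to 3.81 and 4.33 RPM (log2 fold -6.28 ± 0.28, adjusted p = 1.42e-103). Spon2, a matrix protein of the spondin family, rose from 1.93 and 1.49 to 109 and 102 RPM (log2 fold 5.98 ± 0.39, adjusted p = 3.47e-74). Matricellular genes thus lay on both sides.

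Among 22 matrix proteases and inhibitors 10 rose and 5 fell (median log2 fold 0.46). Mmp13, a collagenase, was at 0 and 0.448 RPM in +/+ and 97.6 and 94.0 RPM in +/- libraries (log2 fold 8.51, 95% counting interval 6.95 to 10.78, adjusted p = 6.97e-86). Timp3, an inhibitor held in the matrix, rose from 100.3 to 2386 RPM as group levels (log2 fold 4.57 ± 0.21, adjusted p = 3.09e-79). Mmp14, the membrane-bound collagenase, fell from 469 and 443 to 162 and 157 RPM (log2 fold -1.52 ± 0.21, adjusted p = 1.11e-11). The proteases too lay on both sides. Of 25 integrin and basement membrane genes 7 rose and 8 fell (median 0.13), against 17.5% and 16.7% of all tested genes. Itgb3, a chain of the vitronectin receptor, rose from 1.93 and 1.19 to 20.6 and 20.7 RPM (log2 fold 3.78 ± 0.41, adjusted p = 1.46e-24). Nid2, a linker of basement membranes, fell from 269 and 271 to 0.794 and 1.30 RPM (log2 fold -8.00 ± 0.43, adjusted p = 3.75e-120). Itga6, the laminin receptor chain, fell (-2.49). Itga9 was at 723 and 63.0 RPM in +/+ and 207 and 41.5 RPM in +/- libraries (log2 fold -1.66 ± 0.21, adjusted p = 1.35e-13). It is among the loci at which the shallower +/+ library stood apart. Without that library the log2 fold was 0.98 (adjusted p = 0.00137). Its groups overlap, so no direction is given for it.

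In the BMP pathway, whose secreted ligands are held back by antagonists, 7 of 21 genes rose and 9 fell (median log2 fold 0.32). All tested genes had 17.5% higher and 16.7% lower. Bmp4, a ligand, rose from 16.9 and 15.5 to 92.2 and 94.8 RPM (log2 fold 2.53 ± 0.23, adjusted p = 1.27e-24). The target genes Id1 (log2 fold 0.94) and Smad6 (1.42) rose. The antagonists Grem1 and Fst fell. Grem1, gremlin, fell from 333 and 384 to 14.4 and 13.4 RPM (log2 fold -4.69 ± 0.23, adjusted p = 7.53e-75). Fst, follistatin, fell from 69.9 and 80.6 to 27.5 and 32.6 RPM (log2 fold -1.32 ± 0.22, adjusted p = 3.85e-08). For either gene both +/- libraries lay below both +/+ libraries, as in 35.8% of all genes. Bambi, a decoy receptor, was at 3.0005 and 2.84 RPM in +/+ and 0 and 0 RPM in +/- libraries (at least 12.8-fold lower, adjusted p = 8.32e-09). The inhibitor Smad7 fell (-0.72) although Smad6 rose. In the TGF-beta pathway 6 of 20 rose and 10 fell (median -0.53). The ligands Tgfb1 (1.98), Tgfb2 (2.19) and Tgfb3 (1.73) rose. The target genes Pmepa1 (-1.07) and Skil (-0.99) fell, and the co-receptor Tgfbr3 fell from 132 and 134 to 23.2 and 19.6 RPM (log2 fold -2.64 ± 0.22, adjusted p = 2.66e-28). The 3 ligand genes thus rose where these 2 target genes fell. Inhba, for a subunit of activin A, fell (-1.68), and Inhbb, for a subunit of activin B, rose from 0.214 and 0 to 15.6 and 17.3 RPM (log2 fold 7.54, 95% counting interval 5.06 to 12.86, adjusted p = 2.12e-32).

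Of 36 Wnt genes 15 rose and 12 fell (median log2 fold 0.059), against 17.5% and 16.7% of all tested genes. Among the ligands, Wnt4 was at 0.214 and 0.149 RPM in +/+ and 9.84 and 8.96 RPM in +/- libraries (log2 fold 5.74, 95% counting interval 3.85 to 8.80, adjusted p = 1.42e-20). Wnt11 was at 0 and 0 RPM in +/+ and 8.41 and 10.1 RPM in +/- libraries (at least 35.2-fold higher, adjusted p = 9.19e-23). Both ligands were at or near 0 in the +/+ libraries. Wnt10b fell from 56.8 and 61.0 to 0.794 and 0.867 RPM (log2 fold -6.15 ± 0.48, adjusted p = 1.27e-64) and Wnt7a fell from 10.3 and 8.36 to 0 and 0.144 RPM. The secreted inhibitor Dkk2 fell from 90.0 and 94.6 to 0.159 and 0.144 RPM (log2 fold -9.25, 95% counting interval -12.30 to -7.40, adjusted p = 8.79e-90). Lef1, a nuclear effector, fell (-1.29), Tcf7l1, a related repressor, rose (3.57), and Ctnnb1, for beta-catenin, was not called (0.09). Ligands and effectors thus lay on both sides. In the Notch pathway 6 of 18 rose and 7 fell (median -0.14). The ligand Jag2 was at 0.214 and 0 RPM in +/+ and 51.4 and 50.4 RPM in +/- libraries (log2 fold 9.17, 95% counting interval 6.69 to 14.48, adjusted p = 2.4e-64), and Jag1 rose (1.29). The receptor Notch1 fell and Notch2 rose, as given above. Of the targets Hes1 rose (1.58) and Hey2 (-2.20) and Nrarp (-1.23) fell, the last call being lost without the shallower +/- library.

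Growth factor systems changed member by member, and their counts stand against 17.5% higher and 16.7% lower of all tested genes. Of 9 genes of platelet-derived growth factor (PDGF) signalling and pericytes 3 rose and 4 fell (median log2 fold -0.46). The ligand Pdgfb was at 0 and 0 RPM in +/+ and 40.5 and 35.8 RPM in +/- libraries (at least 144-fold higher, adjusted p = 5.72e-56). Its receptor Pdgfrb fell from 57.01 and 52.8 to 8.25 and 5.92 RPM (log2 fold -2.96 ± 0.26, adjusted p = 1.86e-28). The ligand Pdgfd fell from 64.3 and 64.0 to 3.81 and 4.04 RPM (log2 fold -4.03 ± 0.29, adjusted p = 9.7e-45). Pdgfra was not called (0.04). Of 19 genes of insulin-like growth factor (IGF) signalling and imprinting 7 rose and 7 fell (median -0.098). The binding protein genes Igfbp4, Igfbp2 and Igfbp6 rose. Igfbp4 went from 11.7 to 2630.4 RPM as group levels (log2 fold 7.81 ± 0.24, adjusted p = 2.85e-161). Igfbp2 rose from 0 and 0 to 77.1 and 85.4 RPM (at least 308-fold higher, adjusted p = 2.89e-82). Igfbp6 rose from 1.07 and 1.49 to 66.8 and 67.7 RPM (log2 fold 5.68 ± 0.42, adjusted p = 2.68e-61). The receptor Igf1r (-1.20) and the RNA-binding Igf2bp3 (-1.81) fell. Peg3, an imprinted gene read from the paternal allele, was at 0 and 0 RPM in +/+ and 64.9 and 56.3 RPM in +/- libraries (at least 229.6-fold higher, adjusted p = 1.25e-71).

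Guidance cues, which steer axons and cell sheets, had 19 rises and 14 falls among 39 tested (median log2 fold 0.66). Slit2, a repellent, fell from 397 and 435 to 48.1 and 40.9 RPM (log2 fold -3.23 ± 0.21, adjusted p = 2.46e-43). Its receptors Robo1 (-2.42) and Robo2 (-3.12) fell too. Efnb1, an ephrin, rose from 5.79 and 6.86 to 103 and 103 RPM (log2 fold 4.01 ± 0.27, adjusted p = 3.57e-49). Sema3e rose from 2.79 and 2.39 to 41.6 and 35.8 RPM (log2 fold 3.92 ± 0.34, adjusted p = 1.06e-34). Sema7a fell from 15.9 and 18.95 to 0.635 and 0.433 RPM (log2 fold -5.05 ± 0.57, adjusted p = 3.32e-31). Cues and receptors thus changed in both directions. In prostaglandin synthesis 6 of 11 rose and 1 fell (median 0.73). Beside Ptgis, Ptgs1, for the constitutive cyclooxygenase, rose from 11.4 and 8.80 to 114 and 113 RPM (log2 fold 3.51 ± 0.25, adjusted p = 9.46e-42). Ptgs2, for the inducible one, fell from 438 and 586 to 271 RPM (log2 fold -0.92 ± 0.21, adjusted p = 6.69e-05). The 2 cyclooxygenase genes thus moved apart. Retinoic acid genes had 4 rises and 3 falls among 10 tested (median 0.22). Aldh1a1, which makes retinoic acid, rose from 1.93 and 2.09 to 363 and 362 RPM (log2 fold 7.49 ± 0.36, adjusted p = 4.41e-120). The carrier Crabp2 fell from 54.4 and 51.2 to 0.317 and 0.867 RPM (log2 fold -6.45 ± 0.54, adjusted p = 5.62e-64). Cyp26b1, which degrades retinoic acid, was at 4.93 and 3.13 RPM in +/+ and 0 and 0 RPM in +/- libraries (at least 17.3-fold lower, adjusted p = 1e-11).

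Both groups carried the same activated HRas vector. Of 28 genes of Ras and MAP kinase output 11 rose and 9 fell (median log2 fold 0.015). Dusp6, a phosphatase that dampens ERK, rose from 33.4 and 30.7 to 212 and 217 RPM (log2 fold 2.74 ± 0.22, adjusted p = 2.39e-31). Dusp4 rose from 4.29 and 3.28 to 31.4 and 26.3 RPM (log2 fold 2.95 ± 0.31, adjusted p = 7.19e-22). Dusp1 fell from 75.9 and 81.6 to 17.6 and 18.6 RPM (log2 fold -2.12 ± 0.23, adjusted p = 3.48e-18). Il1rl1, the receptor of interleukin 33, fell from 803 and 992 to 11.9 and 14.2 RPM (log2 fold -6.10 ± 0.23, adjusted p = 9.01e-114). The Dusp genes thus split, and Fosl1 (-0.08), Hmga2 (-0.09) and Ccnd1 (-0.35), other genes of this output, were not called. Of 21 genes for Ras proteins and regulators 3 rose and 8 fell (median -0.36). Mapk3, for ERK1, rose from 35.8 and 28.5 to 125 and 131 RPM (log2 fold 2.00 ± 0.22, adjusted p = 2.08e-17), while Rras (-1.08) fell. Of 27 immediate-early and AP-1 genes 5 rose and 9 fell (median -0.22). Beside Jun and Srf, the YAP and serum target Ccn1 (Cyr61) fell from 1074 and 1139.7 to 437 RPM (log2 fold -1.34 ± 0.20, adjusted p = 1.68e-09). Junb (0.60) and Jund (0.64) rose, calls that were lost with the dispersion doubled, without the deeper +/+ library and without the shallower +/- library (for Junb also without the deeper +/- library).

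Interferon-stimulated genes, the antiviral set that type I and II interferons switch on, fell more often than they rose, though most were low in both groups. Of 35 tested, 19 fell and 7 rose (median log2 fold -0.76), and their summed level was 442 RPM in +/+ and 376 RPM in +/- cells. Isg15, a ubiquitin-like modifier, was at 2.79 and 2.24 RPM in +/+ and 0.317 and 0.289 RPM in +/- libraries (log2 fold -3.03 ± 0.76, adjusted p = 2.75e-05). Usp18, the protease that takes ISG15 off, was at 3.86 and 3.13 RPM in +/+ and 0.159 and 0.578 RPM in +/- libraries (log2 fold -3.19 ± 0.69, adjusted p = 8.09e-07). Oas1a, a sensor of double-stranded RNA, was at 1.71 and 2.54 RPM in +/+ and 0 and 0 RPM in +/- libraries (at least 9.63-fold lower, adjusted p = 1.1e-06). This call was lost when either +/- library was left out. The set was split. Irgm1, a guanosine triphosphatase of vesicle defence, rose from 37.3 and 45.2 to 75.6 and 74.7 RPM (log2 fold 0.86 ± 0.22, adjusted p = 0.000511). Gbp2, of the same defence, rose from 3.86 and 2.84 to 8.73 and 7.66 RPM (log2 fold 1.32 ± 0.34, adjusted p = 0.000589), a call that was lost without the deeper +/+ library.

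The same promoters were searched on both strands for a core of the interferon-stimulated response element, GAAA and again GAAA with any 2 bases between them. It stood in 7 of the 16 interferon-stimulated genes that fell (43.8%), 2 of 5 that rose (40%) and 2 of 6 not called (33.3%). Of the 10123 tested genes with a promoter 3.08% held it in any of their promoters, and of all single promoters 2.98%. The shares were close in the genes that fell and those that rose. The stretches of Isg15 (chr4:156200860-156200959, minus strand) and Oas1a (chr5:120907526-120907625, minus strand), which fell, and of Gbp2 (chr3:142620529-142620628, plus strand) and Irgm1 (chr11:48871421-48871520, minus strand), which rose, are shown from RefSeq (GRCm38.p6), with the motifs in capitals. Overlapping motifs run together in Isg15, Oas1a and Irgm1.
Isg15: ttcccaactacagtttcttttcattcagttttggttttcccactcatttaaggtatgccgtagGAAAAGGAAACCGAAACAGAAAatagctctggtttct
Oas1a: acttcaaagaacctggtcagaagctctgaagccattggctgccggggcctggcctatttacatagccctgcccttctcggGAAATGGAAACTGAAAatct
Gbp2: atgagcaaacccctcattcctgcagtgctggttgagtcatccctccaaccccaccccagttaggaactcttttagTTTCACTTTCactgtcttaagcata
Irgm1: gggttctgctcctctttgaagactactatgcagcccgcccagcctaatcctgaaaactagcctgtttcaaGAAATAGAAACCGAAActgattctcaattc

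The receptors and sensors upstream of these genes moved more often the other way, with 10 of 24 higher and 5 lower (median log2 fold 0.21). Irf1, an activating factor, rose from 10.7 and 9.85 to 55.9 and 50.4 RPM (log2 fold 2.37 ± 0.25, adjusted p = 8.5e-20). Tmem173, for the adaptor STING, rose from 10.7 and 9.85 to 45.6 and 49.3 RPM (log2 fold 2.21 ± 0.25, adjusted p = 3.7e-17). Cgas, the DNA sensor that activates STING, was at 35.4 and 44.5 RPM in +/+ and 0 and 0.144 RPM in +/- libraries (log2 fold -9.05, 95% counting interval -14.35 to -6.56, adjusted p = 6.35e-62). The sensor was thus near 0 where its adaptor was higher. Jak2 (1.78), Tyk2 (1.52) and Ifngr2 (1.68) rose, and the feedback inhibitor Socs1 fell (-2.25). In the presentation of antigen on MHC class I 6 of 14 rose and 6 fell (median -0.24). The surface chains B2m (-0.95), H2-K1 (-1.27) and H2-D1 (-0.88) fell. Tapbp (0.99), Erap1 (1.25) and the proteasome parts Psmb10 (1.81) and Psme1 (1.25), which prepare and load peptides, rose. H2 genes are near-identical copies, so their reads may be shared between them.

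Chemokines, which draw leukocytes, had 9 rises and 1 fall among 12 tested (median log2 fold 2.80). Their summed level was 71.2 RPM in +/+ and 716 RPM in +/- cells. Of 26 listed, 7 had no read in either group. Ccl20 (0.0878 RPM in +/+ and 7.64 RPM in +/- cells) and Cxcl5 (0.176 and 3.47 RPM) passed the level filter only through the +/- group, which adds rises to the count. Cxcl12, a stromal chemokine, rose from 11.6 and 8.06 to 340.5 and 332 RPM (log2 fold 5.12 ± 0.25, adjusted p = 9.54e-82). Ccl2, a monocyte attractant, rose from 9.64 and 10.9 to 159 and 176 RPM (log2 fold 4.02 ± 0.25, adjusted p = 2.08e-54). Cxcl16 rose from 1.5002 and 0.746 to 45.1 and 45.6 RPM (log2 fold 5.42 ± 0.46, adjusted p = 1.39e-49). In all 3 every +/- library was above every +/+ library, as in 37.7% of all genes. Cxcl10, which interferon induces, was the member that fell, from 5.57 and 5.67 to 2.70 and 1.30 RPM (log2 fold -1.51 ± 0.39, adjusted p = 0.000753), and this call was lost without the deeper +/- library. Markers of macrophages and leukocytes summed to 18.4 RPM in +/+ and 34.4 RPM in +/- cells beside this rise. Of their 4 tested genes 2 rose, Tyrobp had no read and Ptprc was near 0. The part of such cells in the chemokine rise was not tested. Of 23 cytokines and receptors 11 rose and 8 fell (median 0.40). The alarmin Il33 was at 0.429 and 0 RPM in +/+ and 63.6 and 62.5 RPM in +/- libraries (log2 fold 8.48, 95% counting interval 6.63 to 11.53, adjusted p = 2.01e-69), while its receptor Il1rl1 was lower, as given above. Lifr, a receptor chain for LIF, was at 0.429 and 0.149 RPM in +/+ and 54.3 and 43.5 RPM in +/- libraries. Il7, a lymphocyte growth factor, was at 6.00 and 6.27 RPM in +/+ and 0 and 0 RPM in +/- libraries (at least 27.1-fold lower, adjusted p = 4.88e-17). Of 9 complement genes 5 rose and 1 fell (median 0.84). C3, the central component, rose from 48.0 and 44.9 to 246 and 211 RPM (log2 fold 2.30 ± 0.21, adjusted p = 1.87e-23). The protease Masp1 fell from 121 and 117 to 17.8 and 16.3 RPM (log2 fold -2.80 ± 0.23, adjusted p = 1.28e-30).

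Stress-response genes, most of them targets of the amino acid response and of unfolded proteins, were lower: 18 of 37 fell and 3 rose (median log2 fold -0.45). Atf5, a factor of this response, fell from 274 and 230.2 to 29.7 and 30.04 RPM (log2 fold -3.08 ± 0.22, adjusted p = 9.82e-39). Trib3, a pseudokinase, fell from 56.2 and 52.5 to 6.83 and 7.08 RPM (log2 fold -2.96 ± 0.26, adjusted p = 2.13e-28). Slc7a5, an importer of large amino acids, fell from 563 and 569 to 130.3 and 129 RPM (log2 fold -2.13 ± 0.21, adjusted p = 1.6e-21). The groups did not overlap in any of the 3 genes, as was so for most called genes. Chac1, which degrades glutathione, fell (-1.97), and Nupr1, a small stress factor, fell (-1.58). The chaperones of the endoplasmic reticulum Hspa5 (0.05) and Hsp90b1 (-0.17) were not called, and Cebpb (1.49) and Sdf2l1 (1.05) rose. Hspa1b, a heat shock gene, fell (-1.63).

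The motif TGATGNAA is a form of the element that ATF4 and C/EBP proteins bind, and it was searched for on both strands. It stood in the promoters of 4 of the 17 stress genes that fell (23.5%: Asns, Chac1, Nupr1 and Herpud1), 0 of 3 that rose and 1 of 13 not called (7.69%, Slc7a11). Of the tested genes with a promoter 2.32% held it in any of their promoters, and of all single promoters 3.45%. It is shown for the 2 whose falls are given above, Chac1 (chr2:119350992-119351091, plus strand) and Nupr1 (chr7:126625558-126625657, minus strand), from RefSeq (GRCm38.p6) with the motif in capitals.
Chac1: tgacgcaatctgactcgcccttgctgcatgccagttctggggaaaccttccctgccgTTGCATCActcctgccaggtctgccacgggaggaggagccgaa
Nupr1: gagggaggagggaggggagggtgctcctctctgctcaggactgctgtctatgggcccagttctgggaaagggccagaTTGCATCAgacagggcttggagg

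The authors' test called few cell cycle genes. Of 30 genes of G2 and mitosis 1 rose and 4 fell (median log2 fold -0.27). Of 35 E2F and replication genes 4 rose and 3 fell (median -0.051). These shares were below the 17.5% and 16.7% of all tested genes. With limma they were not: of 29 genes of G2 and mitosis 17 were lower and 3 higher, and of 35 E2F and replication genes 10 were lower and 11 higher, against 23.7% lower and 24.4% higher of all genes. In 20 of the 30 genes of G2 and mitosis both +/- libraries lay below both +/+ libraries, against 35.8% of all genes. Ccnb2, for cyclin B2, rose from 24.6 and 22.7 to 74.0 and 85.5 RPM (log2 fold 1.76 ± 0.23, adjusted p = 4.37e-13). Ccna2, for cyclin A2, fell from 201 and 234 to 97.6 and 109 RPM (log2 fold -1.07 ± 0.21, adjusted p = 3.55e-06). Mki67 was not called (-0.49, adjusted p = 0.0535), though limma called it lower. Of 15 genes for D and E cyclins, kinases and pocket proteins 1 rose and 5 fell (median -0.37). Rb1, the retinoblastoma gene, fell from 39.9 and 52.8 to 16.8 and 18.6 RPM (log2 fold -1.39 ± 0.23, adjusted p = 3.58e-08). Of 5 inhibitors of these kinases, Cdkn2a, the locus that also encodes p19ARF, rose from 15.6 and 10.6 to 51.4 and 62.1 RPM (log2 fold 2.13 ± 0.24, adjusted p = 7.75e-17), Cdkn2c fell (-1.04), and Cdkn1a, for p21, was not called (0.19).

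The p53 target genes had 6 rises and 5 falls among 26 tested (median log2 fold 0.13). These counts, and those of apoptosis and checkpoint genes below, stand against 17.5% higher and 16.7% lower of all tested genes. Fas, a death receptor, rose from 2.79 and 2.84 to 20.6 and 25.1 RPM (log2 fold 3.03 ± 0.34, adjusted p = 1.32e-20). Pmaip1, the death-promoting protein Noxa, fell from 55.3 and 58.9 to 0.952 and 2.31 RPM (log2 fold -5.11 ± 0.37, adjusted p = 2.15e-55). Of 24 apoptosis genes 9 rose and 5 fell (median 0.076). The BH3-only gene Bmf rose from 1.07 and 0.746 to 24.0 and 22.2 RPM (log2 fold 4.71 ± 0.50, adjusted p = 4.61e-32). Bcl2l11, for Bim, rose (1.63), while Pmaip1 of the same class fell. Mcl1, a survival gene whose protein Fbw7 binds, was not called (-0.06). In the DNA damage checkpoint 2 of 19 rose and 2 fell (median 0.060). Trp53bp1, for the Usp28-binding protein 53BP1, was at 69.7 and 77.9 RPM in +/+ and 134 and 128 RPM in +/- libraries (log2 fold 0.82 ± 0.21, adjusted p = 0.000625). Nbn, which senses broken DNA, was at 43.1 and 63.6 RPM in +/+ and 29.999 and 28.3 RPM in +/- libraries (log2 fold -0.88 ± 0.22, adjusted p = 0.000569). The call on Nbn was lost without the deeper +/+ library.

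In metabolism and protein turnover the shares were mixed. Genes of the mitochondrial respiratory chain had 7 rises and 0 falls among 35 tested (median log2 fold 0.32). Cox8a, a subunit of cytochrome c oxidase, rose from 81.2 and 71.5 to 156 and 157 RPM (log2 fold 1.04 ± 0.21, adjusted p = 1e-05). The 7 of 35 stand near the 17.5% of all tested genes, but limma called 16 of 32 higher and 1 lower, against 24.4% and 23.7% of all genes. In 24 of the 35 both +/- libraries lay above both +/+ libraries, against 37.7% of all genes. Glycolysis and hypoxia genes had 12 rises and 7 falls among 33 (median 0.39). Slc16a3, a lactate exporter, rose (3.57), while Slc2a1, a glucose importer, fell (-1.004). Adm, for adrenomedullin, was at 58.3 and 55.1 RPM in +/+ and 0 and 0 RPM in +/- libraries (at least 249.6-fold lower, adjusted p = 8.88e-74). Of 31 sterol and fatty acid genes 5 rose and 11 fell (median -0.29). Hsd17b7 (-1.92), Msmo1 (-1.24), Fdps (-1.10) and Idi1 (-0.97) of cholesterol synthesis fell, and Ebp of the same branch rose (1.28). Fasn (0.71), Scd2 (0.94) and Fads1 (0.92) of fatty acid synthesis rose. The call on Fasn was lost without the shallower +/- library and with the dispersion doubled, and that on Idi1 without the deeper +/+ library. Of 44 genes of Myc-induced growth 8 rose and 4 fell (median 0.089), and of 31 proteasome genes 4 rose and 2 fell (median 0.050). Of 43 ubiquitin-specific proteases, the family of Usp28, 4 rose and 10 fell (median -0.10). Usp9x rose (0.93), and Usp24 (-1.21) and Usp1 (-0.88) fell.

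**Figure D4:**
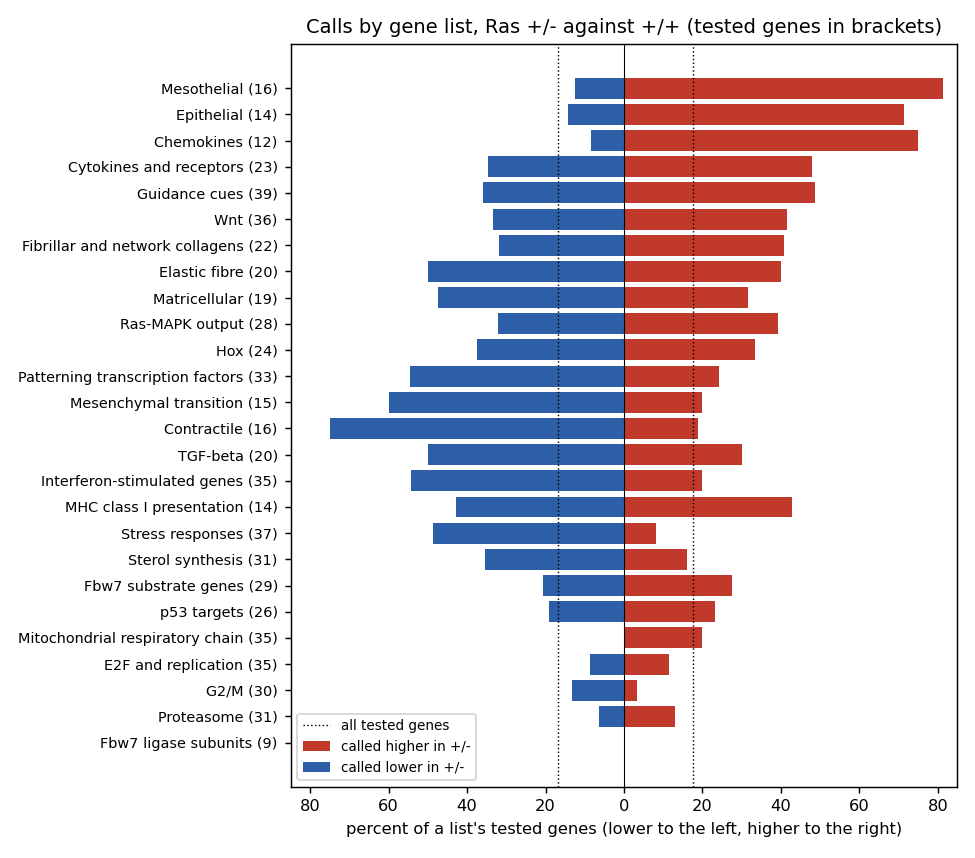
For 26 gene lists, the percent of tested members called higher (red, to the right) and lower (blue, to the left) in Ras +/- against +/+ cells, with dotted lines at the 17.5% and 16.7% of all tested genes. Mesothelial, chemokine and epithelial genes extend farthest to the right and contractile genes farthest to the left, while proteasome and E2F lists stay inside the lines.

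The label of fibroblast was checked on its markers. Col1a1, Fn1 and Vim were abundant in both groups (Col1a1 5149.9 RPM in +/+ and 7146 RPM in +/- cells). The markers summed to 13904 and 19129 RPM, and 5 of 12 tested rose and 3 fell. Lum, however, had no read in either group and Thy1 and Fap were near 0. The markers Dcn, near 0 in +/+ cells only, and Pdgfrb, lower in +/- cells, differed between the groups, as given above. Endothelial markers were at 20.3 and 104 RPM with Sox17 and Sox18 at 0 (2 of 6 rose). Adipocyte markers were at 2.05 and 24.8 RPM with Lep and Cidec at 0 (2 of 3 rose). Skeletal muscle markers were at 447 and 448 RPM, nearly all Tnnc1, with Myod1, Myf5 and Myog at 0. Neural and Schwann markers, with Foxd3 at 0, had 5 rises and 3 falls among 9 and summed to 156 and 299.6 RPM. Sox2, a factor of neural stem cells, was at 18.6 and 20.4 RPM in +/+ and 0 and 0 RPM in +/- libraries (at least 86.4-fold lower, adjusted p = 1.48e-40). Osteoblast markers summed to 303 and 373 RPM with Ibsp and Dlx5 at 0, and Runx2, the bone factor, fell (-1.25). The part of such cells in the differences was not tested. Xist, the RNA that silences an X chromosome in female cells, was at 305 and 366 RPM in +/+ and 26.8 and 24.3 RPM in +/- libraries (log2 fold -3.72 ± 0.22, adjusted p = 2.18e-53). Tsix, its antisense partner, cannot be told apart from it, since strand-specific counting is not stated. The Y-linked Ddx3y was at 10.9 and 10.6 RPM in +/+ and 11.3 and 13.4 RPM in +/- libraries. Both groups thus held Xist and Y-linked RNA, and the part of sex in the differences was not tested. Of 7 genes at and beside Usp28 on chromosome 9, Nnmt (3.07) and Ncam1 (2.08) rose, Nxpe4 fell (-1.95) and Zw10 (-0.47) and Rexo2 (-0.20) were not called. The call on Nxpe4 was lost without the deeper library of either group, and limma called Zw10.

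The same allele loss in immortalized cells without Ras gives a second measurement that shares no library with this one. The labels do not say whether both sets came from the same cell populations, so the sets may not be independent. Whether differences were carried over from such populations was not tested. In the immortalized set 1406 of 17035 genes were called (8.25%), 5.04% higher and 3.21% lower. Its coefficient of variation between libraries was 32.8%, so its errors were wider. Over the 15211 genes tested in both sets the log2 folds had a Pearson r of 0.392 and a Spearman rho of 0.0930, a description across genes, which are not independent. Of 725 genes called in both, 568 had the same direction (78.3%), 399 higher and 169 lower; these are 10.9% of the 5195 Ras calls and 59.5% of the 955 immortalized calls among these genes. In immortalized cells 13 of 16 mesothelial and 9 of 12 epithelial genes rose as well. Upk1b rose there from 0.566 to 383 RPM as group levels (adjusted p = 3.68e-49) and Krt14 rose from 0.163 to 146 RPM (adjusted p = 6.05e-42). Of the 16 contractile genes 0 fell and 3 rose there, against 12 falls in the Ras set.

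**Figure D5:**
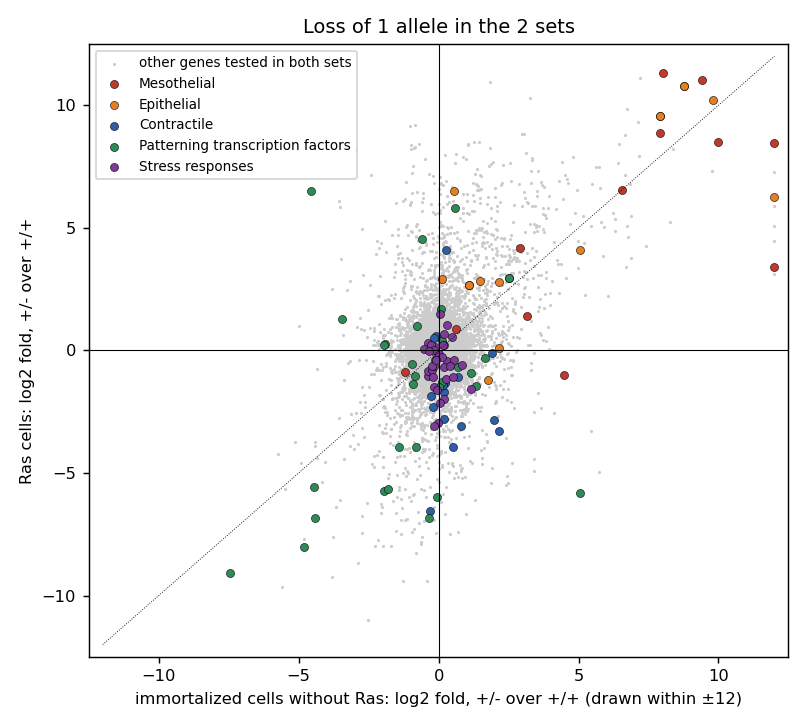
Log2 fold, +/- over +/+, of each gene tested in both sets, in Ras cells and in immortalized cells, with folds of groups at 0 reads drawn at the edge. Over all 15211 genes the folds of the sets are weakly related (rho 0.0930), and a group of mesothelial and keratin genes, Upk1b and Upk3b among them, lies high on both.

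A Wald test of the difference between the Ras and the immortalized fold called 1983 of 15211 genes (13.0%), 1024 with a higher fold in Ras cells (6.73%) and 959 with a lower one (6.30%). Of the 16 contractile genes 13 differed, among them Myl9 by -6.17 ± 0.55 (adjusted p = 5.02e-26), at 782 and 625 RPM in immortalized +/+ and +/- cells, and Tagln by -4.45 ± 0.44 (adjusted p = 2.41e-21). Of the chemokines 8 differed, 1 having risen and 4 fallen of 10 in immortalized cells, with Cxcl12 at 698 and 743 RPM there (difference 5.03 ± 0.46, adjusted p = 5.84e-25). Msln, the mesothelin gene, rose from 21.2 to 476 RPM in immortalized cells (log2 fold 4.49), a difference of -5.51 ± 0.45 (adjusted p = 1.48e-31) from the fall in Ras cells. For Usp28 the difference was 0.22 ± 0.48 (adjusted p = 0.857). None of the 9 ligase genes and none of the 44 Myc-induced growth genes differed.

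Ras cells without an intact Usp28 allele share their +/+ reference with the cells described here, so their folds are not set against each other and only the levels of the -/- and +/- groups are compared. A Wald test called 5921 of 16107 genes (36.8%), 3012 higher in -/- (18.7%) and 2909 lower (18.1%). Of 16 mesothelial genes 13 were lower in -/- than in +/- cells and 1 was higher (summed level 117 RPM in -/- cells), and of 14 epithelial genes 12 were lower and 1 was higher (summed level 104 RPM). Krt18 was at 0.0717 RPM in -/- against 202 RPM in +/- cells (adjusted p = 3.28e-18). Wt1 was at 0.502 against 124 RPM (adjusted p = 1.48e-41). In the other direction, 12 of 15 contractile genes and 33 of 35 interferon-stimulated genes were higher in -/- cells, with 1 lower in each list. Hoxd13 was at 201 RPM in -/- against 0.0757 RPM in +/- cells (adjusted p = 5.95e-18), and Gpnmb was at 628 against 0.0756 RPM (adjusted p = 1.29e-23). Krt18, Hoxd13 and Gpnmb were named for the size of this difference, so their values are a description. Wt1 and the mesothelial, epithelial and contractile lists were brought out above by their levels in these same +/- libraries. Several of their members passed the level filter only through the +/- group. The direction of their counts against -/- cells was thus partly set in advance, and these too are a description. Other genes named above differed less between -/- and +/- cells. Dcn was at 99.8 RPM in -/- and 118 RPM in +/- cells (log2 difference -0.24 ± 0.21, adjusted p = 0.392), and Klf5 was at 12.2 and 11.2 RPM (0.12 ± 0.26, adjusted p = 0.768). Of 12 chemokines 3 were higher and 4 lower in -/- cells, with Cxcl12 at 456 and 336 RPM (0.44 ± 0.21, adjusted p = 0.0827) and Ccl2 at 139.7 and 168 RPM (-0.26 ± 0.21, adjusted p = 0.345). C3 was at 331 and 228 RPM (0.54 ± 0.21, adjusted p = 0.0307), and Pmaip1 at 4.88 and 1.66 RPM (1.53 ± 0.41, adjusted p = 0.000876). Usp28 itself was at 14.8 RPM in -/- and 18.6 RPM in +/- cells (-0.33 ± 0.25, adjusted p = 0.31). Jun was at 145 and 68.4 RPM (1.08 ± 0.21, adjusted p = 4.28e-06) and Myc at 149 and 245 RPM (-0.71 ± 0.21, adjusted p = 0.00307).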

How the data were processed

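RNA with poly(A) tails was sequenced on a Genome Analyzer IIx from libraries made with either of 2 NEBNext kits, per the labels' protocols, which do not say which kit made which library. Per the submitters' processing notes the authors used CASAVA, FastQC, Bowtie 0.12.8, edgeR and build mm9; annotation and counter are not given in the sources used here. Per the file headers, the deposited values are a log2 concentration, a log2 ratio with +/+ on top (turned over here) and a p-value, with a p-value adjusted by the authors over genes; the files hold 0 columns of single samples.

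Group levels were rebuilt as 2^(log2 concentration ± log2 ratio/2) in RPM, after 24 repeated lines were dropped; 97.6% of genes had a symbol. Per-library reads were recovered as the whole numbers that, with 1 dispersion, give the rebuilt level: for 98.3% of +/- and 100% of +/+ values. On simulated data 98.6% of +/+ and 98.2% of +/- values of genes with 1 comparison were resolved and 100% of these were right. Which recovered library is which sample is not known. Genes with a mean level of 1 RPM or more were tested with the authors' p, adjusted by Benjamini-Hochberg. The design foresaw edgeR's quasi-likelihood test only if the authors had deposited counts. The table holds none, so Wald and limma tests on recovered reads served as alternatives. Differences between comparisons were tested with an approximate Wald test with 0.5 reads added. On simulated data of 15950 genes with this dispersion, the Wald test called 57 of 100 genes changed 2-fold, 88 of 100 changed 4-fold and 8 of 15750 unchanged genes. Every simulated gene had the dispersion that the test assumes and few genes were changed, so these counts need not hold for the real data. Versions were Python 3.11.15, numpy 2.4.6, pandas 2.3.3, scipy 1.17.1, R 4.3.3 and limma 3.58.1.

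Promoters (250 bases before to 50 after the start, of which only the 250 before were searched) and gene positions came from tables and annotation of GRCm38, matched by symbol and ID. Members and lists were chosen with earlier results of these data known. Genes were named by rule: Usp28, Fbxw7, Myc, Jun, Ccne1 and Notch1, the 12 largest rises and falls at 10 RPM or more, up to 6 called members of a list in each direction, up to 3 abundant members not called, the 5 most abundant called genes and, for each test of a difference, the 6 largest each way. Members named outside it (Smad7, Cnn2, Asns, Herpud1, Slc7a11, Ddx3y) were chosen after their values were seen. A few genes that the rule names are not reported here.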

Additional observations from a re-analysis of the deposited data

Results flagged for a closer look

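The test of the Ras fold minus the immortalized fold called 1983 of 15211 genes, and its largest differences in each direction are given here as values. Differences on the log2 scale rest on the 0.5 reads added where a group had no read, so they are no measure of size for such genes. Lower in Ras cells were Htr2a, a serotonin receptor gene (-10.22), Gpnmb (-9.99), Fam181b (-9.50), Repin1 (-9.35), Slc6a17 (-9.13) and Mapk13, a p38 kinase gene (-9.04). Higher in Ras cells were Lrrc75b (11.36), Adgrg2, an adhesion receptor gene (11.70), Fgf5, a fibroblast growth factor gene (11.72), Igfbp2 (11.74), Dlx3 (11.87) and Pdgfb (12.15). Pdgfb was at 0 and 38.1 RPM in Ras +/+ and +/- cells and at 13.6 and 2.58 RPM in immortalized +/+ and +/- cells. Igfbp2 was at 0 and 81.3 RPM in Ras cells and at 595 and 322 RPM in immortalized cells. Gpnmb was at 153 and 0.0756 RPM in Ras cells and at 91.4 and 68.9 RPM in immortalized cells.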

How the results depend on the processing

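The number of genes called in Ras +/- against +/+ cells (5444) was 5448 with no filter on level, 4468 at 5 RPM or more, 4071 at an adjusted p under 0.01, 4983 with the adjusted p in the authors' deposited table, 5435 with folds centred on the median gene, 5342 with a Wald test and 7413 with limma. With the dispersion doubled it was 3702, and the count of lower genes moved from 2657 to 1750. Leaving out 1 library at a time gave 3602 to 4266 calls with the Wald test (1780 to 2190 higher, 1822 to 2087 lower; the smallest total was without the deeper +/+ library) and 5789 to 6662 with limma (2876 to 3254 higher, 2764 to 3408 lower); a lone library is assumed to vary like the other groups. The Usp28 fold ran from -0.76 to -0.28 over the same settings and was -0.53 with limma. The Itga9 fold reversed to 0.98 without the shallower +/+ library and was -3.24 without the shallower +/- library. With the dispersion doubled, the difference from immortalized cells was called in 1029 genes (569 higher, 460 lower), and 1899 genes were lower in -/- than in +/- cells. The cause of these moves was not tested. Among the 610 named genes 466 were called, so only these could lose a call. With 1 library left out, only genes with recovered reads were tested. Of 610 named genes, 71 lost their call with the dispersion doubled, 22 with the authors' adjusted p, 47 at the stricter threshold and 37 to 72 with 1 library left out. No paired analysis was possible because the library values carry no replicate number. Genes under about 3 reads in a group, and the 1 dispersion for all genes, limit the folds and errors; the 2 libraries a group do not measure a gene's own spread well.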
